A study of Drosophila melanogaster with 29 samples.

Results

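The 32 genes described here encode heat shock proteins and molecular chaperones of *Drosophila melanogaster*. They were chosen by name from the 17612 genes of the expression tables, not by a cut on their measured values. Earlier results of these data were known when the list was chosen. In the tables, 31 were found under their own symbols. Hsp67Bb was found under CG4456, through its gene identifier FBgn0001228. They were divided into 17 genes known to be inducible by heat or proteotoxic stress, 14 chaperones made in unstressed cells, called constitutive here, and 1 regulator, the heat shock transcription factor Hsf.

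Chaperones bind unfolded or partly folded proteins and keep them from aggregating. In flies, stress turns monomeric Hsf into a trimer that binds heat shock elements in the promoters of the Hsp70, Hsp68, small heat shock protein and Hsp83 genes, and drives their rapid transcription. The Hsc70 cognates, Hsp60, and the endoplasmic reticulum and mitochondrial chaperones fold proteins in cells that have met no stress, and Hsc70-4 also acts at synapses.

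The libraries came from brains of female flies aged 3 to 5 days. Cell types of the central complex were marked by genetic driver lines with the reporter nlstdTomato and collected by FACS (fluorescence-activated cell sorting), from pools of 60 to 100 brains digested with Liberase for 1 h at room temperature. Bulk libraries, of 754 to 1270 cells each, came from D7 neurons (lines SS02238 and SS30295, 2 libraries each), EPG neurons (SS00096 and SS00131, 2 each), PEG neurons (SS02191, 2) and PEN2 neurons (SS02232, 2). Their reference was 2 libraries made from 5 ng of whole brain RNA (WB). Low-cell libraries held 35 PEN2 cells each (SS02232, 14 libraries) or 40 R4d ring neurons each (SS00238). The series' design gives more R4d libraries than the 7 analysed here. Their reference was 8 libraries of 50 pg of central brain RNA (CB), from brains without optic lobes. Single cells were sorted into 6 plates of PEN1 neurons (SS62862) and 5 plates of PEN2 neurons (SS02232). For the WB and CB libraries the labels give no driver, reporter or sorting. Digestion, sorting and cell type therefore changed together in every comparison of sorted cells with brain RNA, and cannot be told apart. In bulk, the sample titles of the WB libraries also carry a different leading number from those of all sorted libraries. The labels do not say what that number stands for, and it cannot be told apart from the rest either. The labels describe the 2 bulk libraries of a line as biological replicates and do not say what separates the low-cell libraries or the plates.

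The bulk values are FPKM, read fragments scaled for gene length and library size, and their read depth is unknown. Each low-cell library held 340527 to 1154010 counts, and each plate 2444192 to 5783837 over its wells. Reporter levels were 193 to 1526 FPKM across the 12 sorted bulk libraries, against 7.06 and 7.13 FPKM in WB. Of 14 glial marker genes, the summed FPKM was 2.56 to 48.5 in 10 sorted bulk libraries, 210 in PEG replicate 2 and 3680 in PEG replicate 1, against 912 and 955 in WB. The glial markers Mdr65 and Balat were at 0 in every sorted bulk library, and repo was at 0 in the EPG and PEN2 libraries. In the low-cell libraries the glial sum was 2.30 to 426 CPM (counts scaled to a common library total) in the PEN2 libraries, 14.98 to 60.1 among R4d, and 7222 to 7894 for CB. On the plates it was 1417 CPM on PEN1 plate 2, 1532 on PEN2 plate 4 and 55.5 to 423 on the others. Of all genes, 5.12% to 8.55% were called lower than in WB in the sorted bulk types. Photoreceptor markers were called lower than in WB in every sorted bulk type (4 to 6 of 8 tested), and so were hemocyte and fat body markers (4 to 7 of 10 tested). The part of these cells' absence in the chaperone values was not tested. All 6 neuronal markers were detected in every group. Their summed FPKM was 739.5 to 2585 in the sorted bulk libraries against 3443 and 3520 in WB. Of them cpx was called lower in bulk PEG (312.9 ± 153.9 FPKM, SD, n = 2) and PEN2 (280.2 ± 60.9, SD, n = 2) than in WB (1957 ± 56.2, SD, n = 2).

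Features of the genes that were not used to choose them also differed between the classes. Of the 17 inducible genes, 12 have a single exon in every annotated transcript (70.6%), among them all 6 Hsp70 copies, Hsp68, Hsp23, Hsp26 and Hsp27. Only Hsp60B did so among the 14 constitutive genes (7.1%), and 2144 of 13986 protein-coding genes did (15.3%). All 17 inducible genes lie on chromosome 3, with 10 on the left arm and 7 on the right, against 7 of the 14 constitutive genes and 6160 of the 13986 protein-coding genes. The 7 heat shock genes Hsp67Bc, Hsp67Bb, Hsp22, Hsp26, Hsp67Ba, Hsp23 and Hsp27 follow each other on the left arm. Only CG4461, which is not among the members, lies between them. Hsp67Bb overlaps Hsp22 on the same strand, so that reads of these genes cannot be fully told apart. The 6 Hsp70 copies are near-identical, and the value of each single copy is uncertain for that reason.

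In bulk libraries the question was which chaperone genes differ between sorted neurons and whole brain. Hsp70Aa, Hsp70Ab, Hsp70Bb, Hsp70Bc, Hsp22, Hsp26, Hsp83, DnaJ-1 and stv were called higher in all 4 sorted types and Hsp68 in D7 and PEG, while the other inducible genes did not pass the test. Of the constitutive chaperones tested, only Hsc70-4 was called. The values below are in FPKM, and those of D7 and EPG are given for replicates 1 and 2 of the line named first above and then for replicates 1 and 2 of the other. Log2 changes are on the scale log2(TMM-scaled FPKM + 1), which understates the changes of low genes, with their standard errors. A gene was called at an adjusted p under 0.05 by limma, with Benjamini-Hochberg adjustment over 9500 genes, of which 30 were members. WB holds every cell type of the brain, so fewer cells of a type and less RNA per cell cannot be told apart in it.

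The Hsp70 genes encode the main stress-induced Hsp70 chaperone, which is scarcely expressed in unstressed flies. Hsp70Bb stood at 74.0, 44.7, 47.6 and 66.3 FPKM in D7 and at 41.4, 56.9, 22.3 and 30.2 in EPG. It stood at 47.2 and 62.4 FPKM in PEG and at 24.7 and 28.7 in PEN2, against 2.47 and 2.39 in WB. The lowest sorted library thus lay far above both brain libraries. Hsp70Bb changed by 4.85 ± 0.39 log2 in D7 (limma adjusted p = 4.60e-06), and by 4.13 ± 0.39, 4.74 ± 0.45 and 3.92 ± 0.45 in EPG, PEG and PEN2. Hsp70Ab stood at 42.8, 52.0, 57.0 and 42.4 FPKM in D7 and at 25.3, 63.6, 18.1 and 34.8 in EPG. It stood at 46.4 and 58.9 FPKM in PEG, 29.03 and 29.3 in PEN2, and 4.36 and 3.92 in WB. Again no sorted library overlapped with WB, and the changes were 4.14 ± 0.41, 3.51 ± 0.41, 4.22 ± 0.48 and 3.58 ± 0.48 log2 in D7, EPG, PEG and PEN2.

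Hsp70Aa was listed at 0 in both WB libraries, so no fold is given. It stood at 41.5, 39.2, 25.5 and 24.9 FPKM in D7 and at 39.2, 15.7, 7.02 and 19.7 in EPG. In PEG it stood at 18.5 and 51.7 FPKM and in PEN2 at 47.2 and 10.1. It was called higher in all 4 types, with limma adjusted p values of 0.000312 to 0.00233. Hsp70Bc stood at 35.4, 17.1, 38.2 and 26.9 FPKM in D7 and at 9.80, 34.3, 7.06 and 45.5 in EPG. It stood at 21.7 and 27.9 FPKM in PEG, 32.3 and 44.0 in PEN2, and 1.40 and 1.3 in WB. Every sorted library lay above WB, by 4.26 ± 0.60, 3.63 ± 0.60, 4.04 ± 0.69 and 4.82 ± 0.69 log2 in D7, EPG, PEG and PEN2. Hsp70Ba, at 0.220 to 10.4 FPKM against 0.130 and 0.0700 in WB, and Hsp70Bbb, at 0.0800 to 27.2 against 0.390 and 0.840, were not called. The sum of the 6 copies does not depend on how the counted reads were divided among them. Whether reads that match several copies were counted was not tested. The sum was 54.8 to 233 FPKM across sorted libraries, against 8.52 and 8.75 in WB. That sum changed by 5.26, 4.53, 5.27 and 4.87 log2 in D7, EPG, PEG and PEN2. Fly expression transgenes often carry Hsp70 promoter or 3′ sequence, and the reporter moved with the same comparisons. Its part in the Hsp70 values was not tested.

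**Figure D1:**
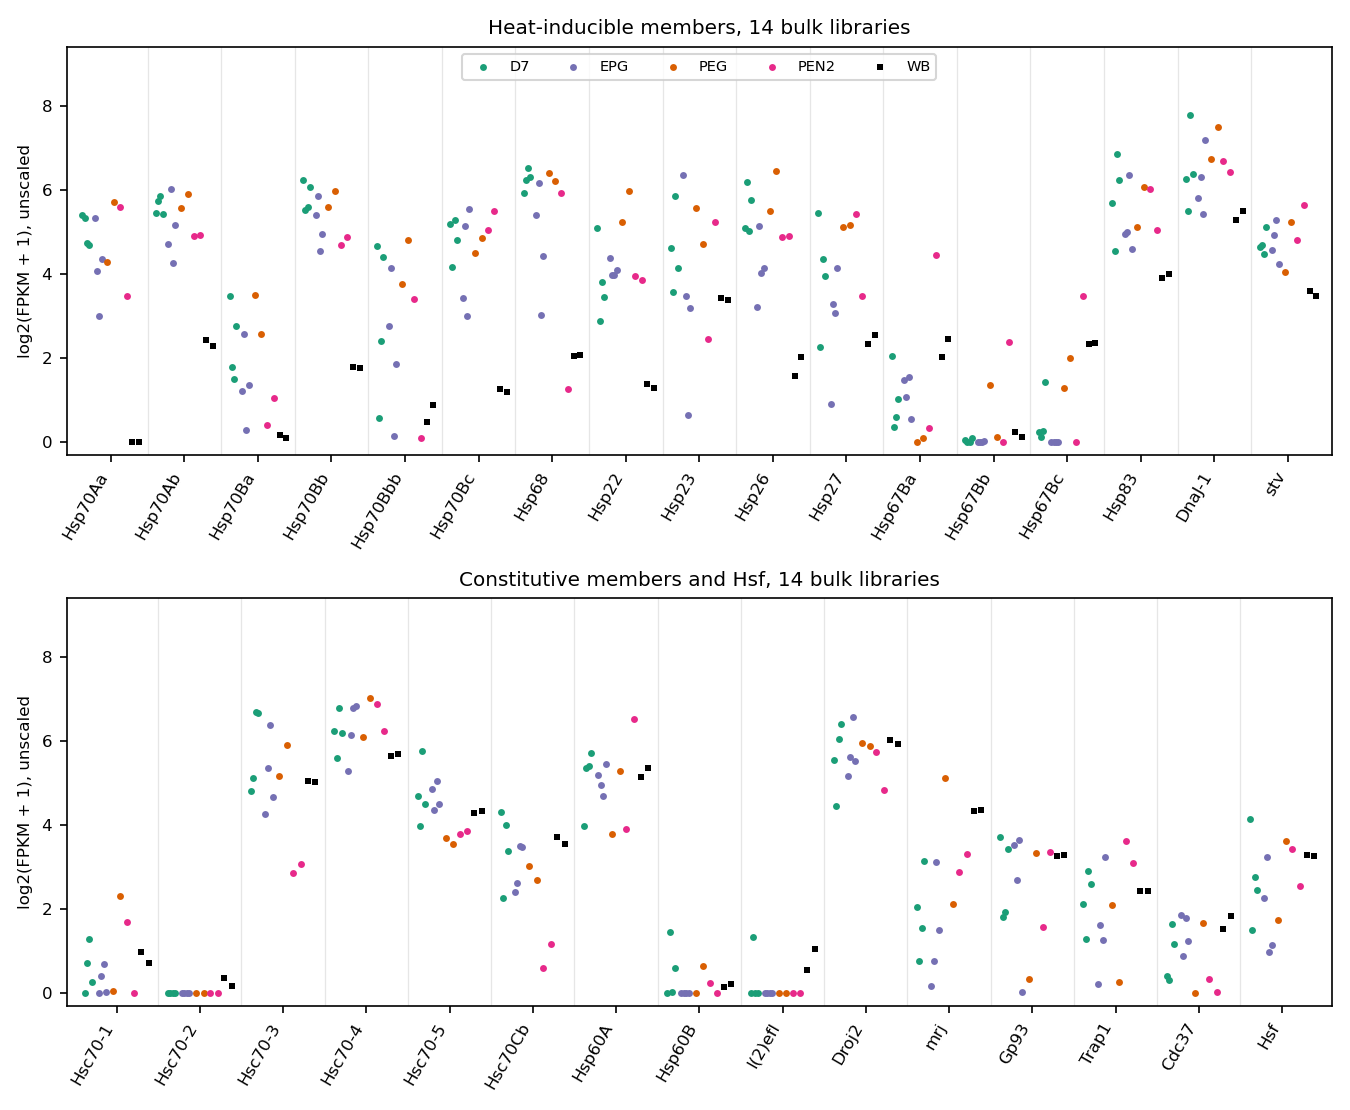
Levels of the chaperone genes in each bulk library as log2(FPKM + 1), with inducible genes in the upper panel and constitutive genes and Hsf in the lower panel, 1 point per library. Hsp70Aa, Hsp70Ab, Hsp70Bb, Hsp70Bc, Hsp22, Hsp26, Hsp83 and stv lie above both WB libraries in all 12 sorted libraries, while most constitutive genes overlap with WB.

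Hsp68, a further stress-induced member of the Hsp70 family, varied more between libraries. It stood at 60.0, 74.4, 90.8 and 78.6 FPKM in D7 and at 41.1, 71.0, 7.21 and 20.4 in EPG. It stood at 83.8 and 73.7 FPKM in PEG, 59.6 and 1.40 in PEN2, and 3.14 and 3.20 in WB. Only PEN2 replicate 2 lay below WB, and both libraries of the EPG line SS00131 lay low among the rest. The sample titles of PEN2 replicate 2 and of both SS00131 libraries share a number prefix that no other bulk library has. The labels do not say what that prefix stands for, and its part in these values was not tested. Hsp68 was called higher in D7 (5.02 ± 1.04 log2, limma adjusted p = 0.00661) and in PEG (5.05 ± 1.20). It did not pass in EPG (3.47 ± 1.04, limma adjusted p = 0.0585) or in PEN2 (2.42 ± 1.20, limma adjusted p = 0.341). The call in PEG was lost with either PEG library left out.

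The small heat shock proteins form oligomers that hold unfolded proteins for refolding by Hsp70. Hsp26, a cytosolic member, stood at 33.1, 71.9, 31.8 and 53.1 FPKM in D7 and at 8.26, 34.3, 15.3 and 16.6 in EPG. It stood at 44.0 and 86.8 FPKM in PEG, 28.3 and 29.1 in PEN2, and 1.97 and 3.10 in WB. All 12 sorted libraries lay above WB, and the changes were 4.49 ± 0.48, 3.04 ± 0.48, 4.90 ± 0.56 and 4.01 ± 0.56 log2 in D7, EPG, PEG and PEN2. Hsp22, which localises to mitochondria, stood at 33.4, 6.43, 13.1 and 10.1 FPKM in D7 and at 19.7, 14.9, 14.7 and 16.03 in EPG. It stood at 36.9 and 62.4 FPKM in PEG, 14.5 and 13.6 in PEN2, and 1.62 and 1.45 in WB. The sorted libraries again did not overlap with WB, and both PEG libraries lay at the top. Hsp22 changed by 3.13 ± 0.51, 3.38 ± 0.51, 4.90 ± 0.59 and 3.37 ± 0.59 log2 in D7, EPG, PEG and PEN2.

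Hsp23, Hsp27, Hsp67Ba, Hsp67Bb and Hsp67Bc were not called in any bulk type. Hsp23 ranged from 0.570 to 81.4 FPKM in the sorted libraries against 9.76 and 9.50 in WB, with 9 of 12 libraries above WB and 3 below. Hsp27 ranged from 0.890 to 43.1 FPKM against 4.02 and 4.84, with 10 of 12 above. Both genes varied widely among libraries of a type. Hsp67Ba, Hsp67Bb and Hsp67Bc were low in most sorted libraries, with medians of 0.780, 0.0100 and 0.135 FPKM. In WB they stood at 3.10 and 4.51, at 0.18 and 0.10, and at 4.07 and 4.16 FPKM. Of the 12 sorted libraries, 10, 10 and 11 lay below both WB libraries, against the direction of the called inducible genes. Their highest values, 21.1, 4.24 and 10.1 FPKM, all came from PEN2 replicate 2, the library in which Hsp68 was lowest.

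Hsp83, the fly Hsp90, is abundant without stress and rises further with it. It stood at 50.4, 22.4, 114 and 74.3 FPKM in D7 and at 30.1, 31.1, 81.3 and 23.3 in EPG. It stood at 33.7 and 66.5 FPKM in PEG, 63.6 and 32.1 in PEN2, and 14.1 and 15.2 in WB. No sorted library overlapped with WB, and the changes were 2.90 ± 0.53, 2.26 ± 0.53, 2.64 ± 0.62 and 2.75 ± 0.62 log2. DnaJ-1, an Hsp40 that stimulates the Hsp70 ATPase, stood at 75.3, 44.4, 220 and 82.7 FPKM in D7 and at 55.3, 78.3, 42.1 and 145 in EPG. It stood at 105 and 179 FPKM in PEG, 101.8 and 85.0 in PEN2, and 38.2 and 44.6 in WB. The lowest D7 and EPG libraries lay between the brain libraries, and the changes were 2.17 ± 0.52, 1.83 ± 0.52, 2.76 ± 0.61 and 2.40 ± 0.61 log2. The Hsp70 co-chaperone stv, the fly BAG-family protein Starvin, stood at 23.8, 24.6, 21.4 and 33.8 FPKM in D7 and at 22.9, 29.7, 38.2 and 17.7 in EPG. It stood at 15.7 and 36.6 FPKM in PEG, 27.0 and 48.8 in PEN2, and 11.2 and 10.1 in WB. Every sorted library lay above WB, and the changes were 2.20 ± 0.41, 2.18 ± 0.41, 2.07 ± 0.47 and 2.84 ± 0.47 log2.

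Among constitutive genes, Hsc70-4 was the only one called. This main cytosolic Hsc70 stood at 74.7, 47.3, 110 and 72.6 FPKM in D7 and at 38.2, 70.1, 109 and 112 in EPG. It stood at 67.9 and 129 FPKM in PEG, 116 and 74.9 in PEN2, and 49.0 and 50.9 in WB. In FPKM, 10 sorted libraries lay above WB and 2 below, and the scaled changes were 1.64 ± 0.35, 1.64 ± 0.35, 1.95 ± 0.40 and 2.14 ± 0.40 log2. Droj2, an Hsp40, overlapped with WB, at 20.9 to 94.4 FPKM with a median of 50.1, against 64.0 and 59.5. The mitochondrial chaperones Hsc70-5 and Hsp60A had medians of 20.5 and 36.9 FPKM, against 18.7 and 19.4 and against 34.4 and 39.9 in WB. Both ranges spanned the brain values. Hsc70Cb, an Hsp110 exchange factor, and the Hsp40 mrj lay below both WB libraries in 10 and 11 of 12 sorted libraries, at medians of 6.34 and 3.28 FPKM. Gp93 and Trap1, the Hsp90 proteins of the endoplasmic reticulum and of mitochondria, and the Hsp90 co-chaperone Cdc37 had medians of 7.29, 3.32 and 1.04 FPKM. Hsc70-1 and the small heat shock relative l(2)efl reached at most 3.99 and 1.53 FPKM. Hsc70-2 was listed at 0 in all sorted libraries and Hsp60B reached 1.75 FPKM, and neither was tested. Hsf stood at 0.960 to 16.7 FPKM with a median of 4.67, against 8.83 and 8.64 in WB, and was not called.

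In all, 11 of 30 members were called in D7 and in PEG and 10 in EPG and in PEN2, all of them higher. The table header of D7 replicate 2 of line SS02238 names SS00238, the R4d line, while its sample labels name SS02238. Without that library, 12 members were called in D7. Of all 9500 genes, 10.3%, 9.48%, 6.14% and 7.73% were called in D7, EPG, PEG and PEN2. Called higher were 1.76%, 1.53%, 1.02% and 1.48%, and called lower 8.55%, 7.96%, 5.12% and 6.24%, in the same order. The called members were 10, 9, 10 and 9 of 17 inducible genes and 1 of 12 tested constitutive genes in each type. The median change of the 11 inducible genes other than the Hsp70 copies was 2.20, 1.83, 2.71 and 2.42 log2 in D7, EPG, PEG and PEN2. That of the constitutive genes was 0.69, 0.39, 0.30 and 0.34, and that of all genes −0.19, −0.22, −0.21 and −0.42. The 4 comparisons share the WB libraries, so their agreement is not independent. In unscaled FPKM, 9 members had all 12 sorted libraries above both WB libraries, among only 22 such genes in all (0.232%). These were Hsp70Aa, Hsp70Ab, Hsp70Ba, Hsp70Bb, Hsp70Bc, Hsp22, Hsp26, Hsp83 and stv. No tested member had all sorted libraries below WB, as 19.2% of genes tested did. Both shares include a shift of the unscaled values, in which the median change of all genes was −0.90 to −1.13 log2. The scale factors were 0.698 to 1.08 in sorted libraries and 1.95 and 1.96 in WB. Hsc70-2, too low to be tested, was listed at 0 in every sorted library and at 0.12 and 0.28 FPKM in WB.

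**Figure D2:**
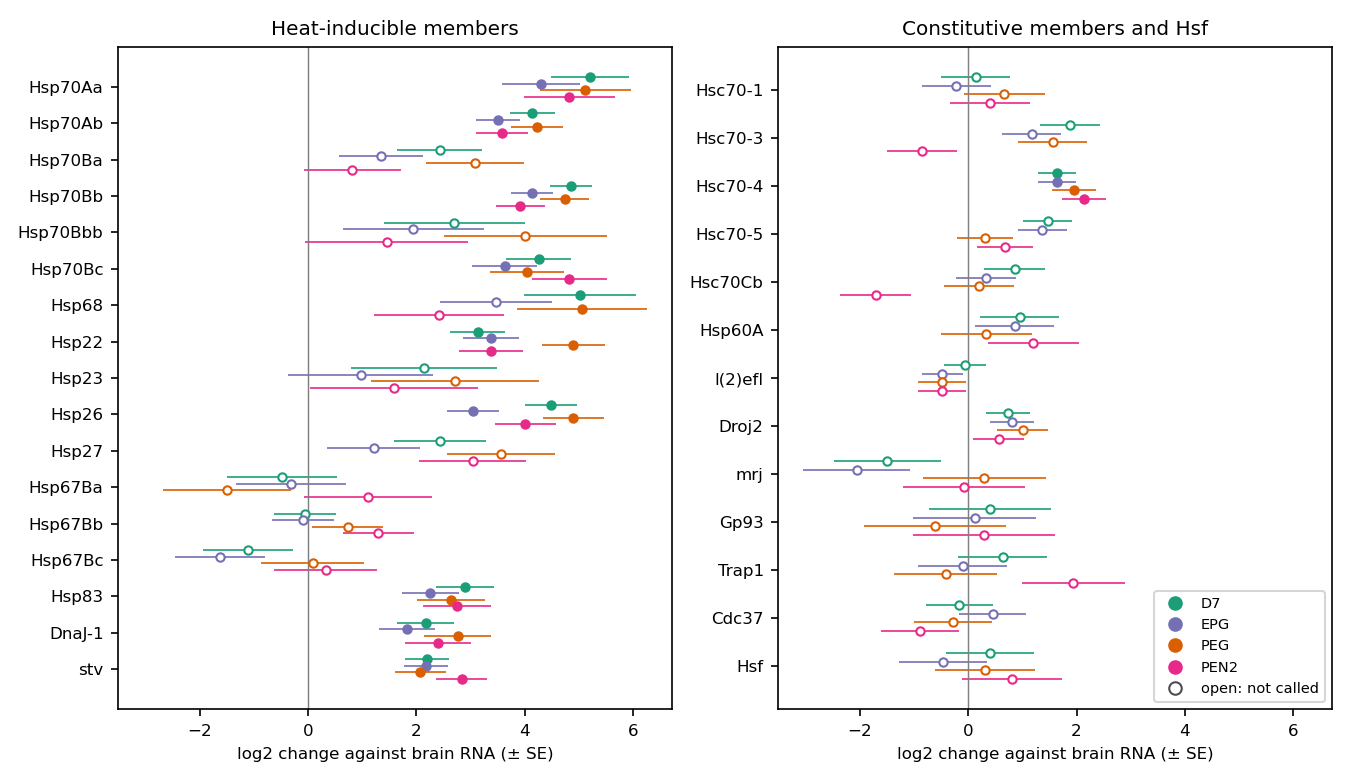
Log2 change of each tested chaperone gene against WB in D7, EPG, PEG and PEN2, with standard errors, and filled points for genes called at an adjusted p under 0.05 by limma. Most inducible genes, such as Hsp70Bb (4.85 in D7), lie to the right, and most constitutive genes lie near 0.

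The scaling of the bulk table bears on the smaller changes. With no scaling the median of all genes moved to −0.92, −0.92, −0.90 and −1.13 log2 in D7, EPG, PEG and PEN2, and 7, 6, 7 and 8 members were called. Hsp83, DnaJ-1 and Hsc70-4 were then called in no type and stv only in PEN2, while Hsc70Cb was lower in PEN2 (−2.75, limma adjusted p = 0.0178). The Hsp70 copies, Hsp68, Hsp22 and Hsp26 kept the calls they had. The reference of 2 libraries also decided part of the calls. With either WB library left out, 5 members were called in D7, 2 in EPG and 4 in PEG, and PEN2 kept 3 without WB replicate 1 and 4 without WB replicate 2, while the calls over all genes in D7 fell from 979 to 46 or 58. Without PEG replicate 1, the library with the high glial sum, 10 members were called in PEG, and without PEG replicate 2, 6 were, with Hsp68, Hsp83, stv, DnaJ-1 and Hsc70-4 lost. DnaJ-1 in EPG was called in 6 of 23 alternative settings.

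The authors' deposited tables of the same comparisons give an FDR under 0.05 to fewer members. In the authors' deposited table for D7 these were Hsp70Aa, Hsp70Ab, Hsp70Bb, Hsp70Bc, Hsp68 and Hsp26, and in that for EPG they were Hsp70Bb and Hsp22. Such an FDR was given to 4.59% of all genes in D7 and 3.08% in EPG. For PEG and PEN2 the authors' deposited tables give no member an FDR under 0.05, and 0 and 11 genes in all. At an unadjusted p under 0.05 the authors' deposited tables list 13, 10, 13 and 14 members in D7, EPG, PEG and PEN2. Of these, 11, 8, 12 and 10 were higher in the sorted cells. The share of all genes at that unadjusted p was not counted.

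Summed over the class, inducible genes reached 264 to 802 FPKM in sorted libraries, against 100.1 and 109 in WB. The sums of constitutive genes overlapped, at 170 to 401 FPKM against 246 and 249. The ratio of these sums was 0.700 to 2.56 in sorted libraries, against 0.407 and 0.438 in WB. This ratio does not depend on the scaling between libraries, and the lowest sorted value, in EPG, lay above both brain values.

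Between the sorted types few members passed a test. In an F test over the 4 types, limma called 1 of 30 members, against 7.06% of all genes. That member was Hsc70-3, the endoplasmic reticulum chaperone BiP. It stood at 27.2, 34.0, 101 and 100 FPKM in D7, with line SS30295 high, and at 18.1, 40.3, 82.8 and 24.6 in EPG. In PEG it stood at 35.1 and 59.2 FPKM and in PEN2 at 6.31 and 7.47, against 31.9 and 31.4 in WB. Both PEN2 libraries lay below all others. The type means spanned 2.73 log2 from the highest, D7, to the lowest, PEN2. The limma adjusted p of 0.0411 is that of the F test over the 4 types, and D7 against PEN2 was not tested alone. Hsc70-3 passed in 9 of 23 alternative settings. No member was called without scaling. Hsc70-3 was not called without D7 SS02238 replicate 2, either SS30295 library, replicate 2 of either EPG line, or any single PEG or PEN2 library. Without PEN2 replicate 1, 4 members were called, Hsp67Ba, Hsp67Bb, Hsp67Bc and Hsp68, for which the remaining PEN2 library lay apart as given above. At an unadjusted p under 0.05, limma had 4 members, Hsc70-3, Hsc70Cb, Hsp26 and Hsp22.

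Low-cell libraries were made from far fewer cells by another protocol, and were counted in whole numbers. There the stress-inducible small heat shock genes Hsp27 and Hsp26 were high in sorted neurons, whereas Hsp83 was lower than in central brain. CPM are given as the lowest, median and highest library of PEN2 (n = 14), R4d (n = 7) and CB (n = 8), and the test was edgeR's quasi-likelihood test over 5553 genes, 21 of them members. Both sorted types were compared with the same CB libraries. The R4d libraries belong to 1 sample entry, the CB libraries to another and the PEN2 libraries to 2, so p-values measure the spread among these libraries, which may be technical.

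Hsp27, a small heat shock protein of the nucleus, ranged over 94.2, 259 and 574 CPM in PEN2 and over 195, 325 and 562 in R4d. In CB it ranged over 0, 5.01 and 29.4 CPM. Every sorted library lay above every CB library, and Hsp27 changed by 5.02 ± 0.53 log2 in PEN2 (edgeR adjusted p = 1.59e-09) and 5.46 ± 0.56 in R4d (edgeR adjusted p = 6.17e-10). Hsp26 ranged over 89.6, 709 and 1678 CPM in PEN2, over 268, 610 and 670 in R4d, and over 74.7, 102 and 126 in CB. In R4d it did not overlap with CB, while the lowest PEN2 library did. Hsp26 changed by 2.98 ± 0.34 log2 in PEN2 and 2.52 ± 0.35 in R4d.

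Hsp23, a cytosolic small heat shock protein, separated PEN2 from both other groups. It ranged over 52.9, 850 and 2688 CPM in PEN2, over 114, 160 and 414 in R4d, and over 147, 219 and 350 in CB. PEN2 libraries spanned both other ranges, with most of them above. Hsp23 was higher in PEN2 than in CB by 1.96 ± 0.42 log2 (edgeR adjusted p = 0.000566) and than in R4d by 2.26 ± 0.45 (edgeR adjusted p = 0.000165), and R4d and CB differed by −0.30 ± 0.46. Hsp67Bc, a small heat shock protein, was instead scarce in R4d. It ranged over 22.98, 307 and 526 CPM in PEN2, over 0, 4.68 and 27.7 in R4d, and over 114, 233 and 294 in CB. All R4d libraries lay below all CB libraries, and Hsp67Bc was lower in R4d than in CB by −4.44 ± 0.66 log2 and higher in PEN2 than in R4d by 4.60 ± 0.64. Hsp67Ba ranged over 0, 48.9 and 215 CPM in PEN2, over 0, 27.0 and 51.5 in R4d, and over 26.7, 55.7 and 82.3 in CB, and was not called.

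Hsp68 ranged over 0, 198 and 685 CPM in PEN2, over 26.2, 77.1 and 141 in R4d, and over 4.87, 16.2 and 49.0 in CB. The ranges overlapped, with 2 PEN2 libraries at 0. It was called higher in PEN2 (3.14 ± 0.72 log2, edgeR adjusted p = 0.00107), and the change of 1.86 ± 0.74 in R4d did not pass (edgeR adjusted p = 0.0606). The co-chaperone stv ranged over 121, 216 and 618 CPM in PEN2, over 77.5, 177 and 318 in R4d, and over 36.6, 98.0 and 156 in CB. It was higher in PEN2 by 1.33 ± 0.32 log2, and the change of 0.92 ± 0.36 in R4d did not pass (edgeR adjusted p = 0.0527). DnaJ-1, at medians of 236, 314 and 261 CPM in PEN2, R4d and CB, overlapped across the groups.

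Hsp70 itself was low in this protocol, and nearly all of its counts were assigned to Hsp70Bc. Hsp70Bc ranged over 0, 17.1 and 61.7 CPM in PEN2, over 12.9, 30.0 and 44.6 in R4d, and over 5.15, 11.1 and 24.1 in CB. The groups overlapped, and the changes of 0.74 ± 0.65 log2 in PEN2 and 1.44 ± 0.73 in R4d did not pass (edgeR adjusted p = 0.548 and 0.161). Hsp70Bc held 95.8%, 91.6% and 97.5% of the summed Hsp70 CPM in PEN2, R4d and CB. In bulk PEN2 libraries it held 29.8% of the summed Hsp70 FPKM, the highest share among the sorted bulk types, and in bulk PEG 12.7%, the lowest. Hsp70Bb had 18 counts over the R4d libraries and 0 over the CB libraries. Hsp22, Hsp67Bb and Hsp70Bbb had 0 counts in all 29 low-cell libraries, which allows up to 0.473 CPM in PEN2, 0.401 in R4d and 0.959 in CB, counting error only. Hsp22 was thus detected in every bulk library and in no low-cell library. Protocol and read assignment differ together here and cannot be told apart.

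Hsp83 was lower than in CB in both sorted types, and Hsc70-4 in PEN2. Hsp83 ranged over 271, 482 and 892 CPM in PEN2, over 256, 474 and 668 in R4d, and over 638, 810 and 1003 in CB. Most sorted libraries lay below CB, and Hsp83 was lower by −0.72 ± 0.18 log2 in PEN2 (edgeR adjusted p = 0.00331) and −0.76 ± 0.22 in R4d (edgeR adjusted p = 0.00671). Hsc70-4 ranged over 346, 483 and 838 CPM in PEN2, over 524, 685 and 730 in R4d, and over 631, 748 and 888 in CB. It was lower in PEN2 than in CB by −0.64 ± 0.14 log2 and than in R4d by −0.43 ± 0.15, with overlapping ranges. The directions of Hsp83 and Hsc70-4 against brain RNA were thus opposite in the bulk and low-cell comparisons of PEN2. With no scaling of the bulk table their bulk changes in PEN2 were 1.57 and 0.89 log2 and did not pass. Whole brain and central brain, protocol and scaling all differ between these comparisons, and the difference itself was not tested.

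Among mitochondrial chaperones, Hsc70-5, the mitochondrial Hsp70, ranged over 40.1, 107 and 286 CPM in PEN2, over 192, 219 and 280 in R4d, and over 63.4, 104 and 158 in CB. Every R4d library lay above every CB library, and Hsc70-5 was higher in R4d than in CB by 1.06 ± 0.35 log2 (edgeR adjusted p = 0.0196) and lower in PEN2 than in R4d by −0.92 ± 0.30. Hsp60A, the chaperonin of the mitochondrial matrix, ranged over 100, 313 and 519 CPM in PEN2, over 401, 492 and 656 in R4d, and over 337, 412 and 523 in CB. It was lower in PEN2 than in R4d by −0.80 ± 0.20 log2 (edgeR adjusted p = 0.00190). Hsf ranged over 40.5, 113 and 280 CPM in PEN2, over 29.5, 78.5 and 108 in R4d, and over 74.8, 157 and 248 in CB. It was lower in R4d than in CB by −1.03 ± 0.39 log2, close to the threshold (edgeR adjusted p = 0.0462). Droj2, at medians of 669, 574 and 676 CPM, and Hsc70-3, at 307, 235 and 190, were not called. Hsc70Cb, mrj, Gp93, Trap1 and Cdc37 had medians of 22.4 to 133 CPM over the groups and did not pass either. Of l(2)efl, Hsc70-1, Hsc70-2 and Hsp60B, which were too low to test, l(2)efl was the highest, with a median of 16.1 CPM in R4d.

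**Figure D3:**
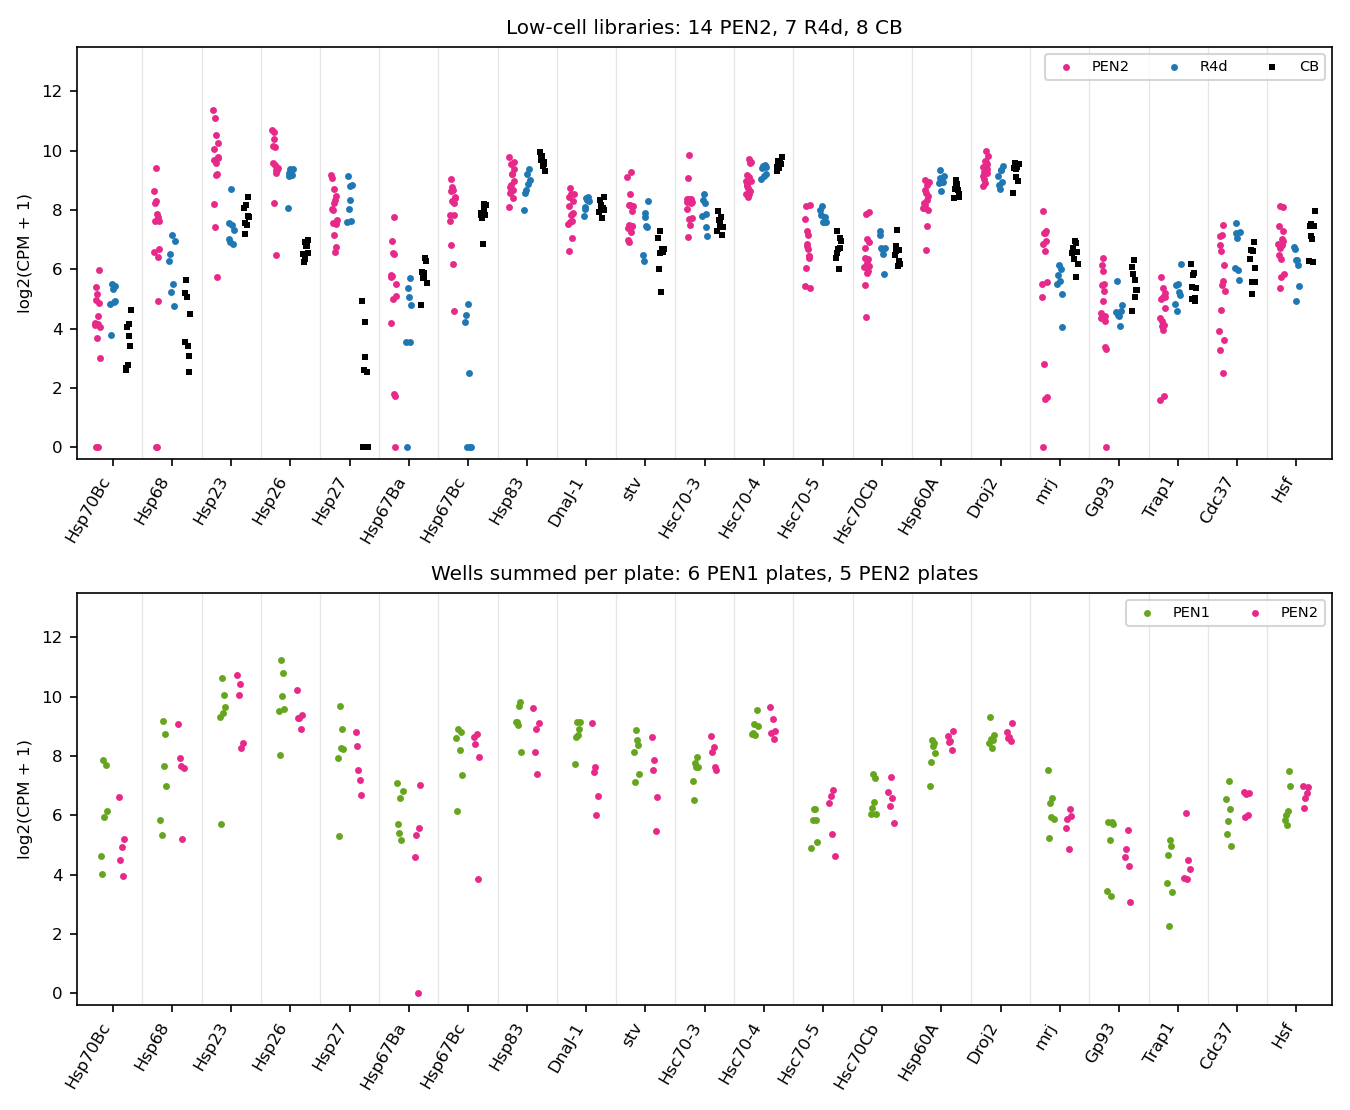
Levels of 21 chaperone genes as log2(CPM + 1) in each low-cell library (upper panel) and in each plate summed over its wells (lower panel), 1 point per library or plate. Hsp27 lies higher in every PEN2 and R4d library than in any CB library, and PEN1 and PEN2 plates overlap in every gene shown.

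Against CB, edgeR called 5 members higher and 2 lower in PEN2, where 18.2% of all genes were called, 7.11% higher and 11.1% lower. In R4d it called 3 higher and 3 lower, where 27.3% were called, 10.8% higher and 16.5% lower. Between PEN2 and R4d, 2 members were higher in PEN2 and 3 lower, where 23.4% of genes were called, 11.8% higher and 11.7% lower. The median change of the 10 inducible genes tested was 1.03 log2 in PEN2, 0.53 in R4d and 0.44 for PEN2 against R4d. That of the constitutive genes tested was −0.26, 0.02 and −0.35, and that of all genes −0.13, −0.10 and −0.03. Every PEN2 library lay above every CB library in 2.09% of genes, of the members only in Hsp27, and below every CB library in 5.11%, with no member. Every R4d library lay above every CB library in 10.0% of genes, with Hsp26, Hsp27 and Hsc70-5 among them, and below in 15%, with Hsp67Bc among them. With only the groups compared in the fit, 11 members were called in R4d against CB and 3 in PEN2 against R4d, where Hsc70-4 and Hsc70-5 were lost. In these fits 2493 of 4575 and 970 of 4887 genes were called in all. The authors' deposited tables give an FDR under 0.05 to 7 members in PEN2, the same as here, and to 10 in R4d. They give it to 12.8% of all genes in PEN2 and 19.1% in R4d. Summed per library, inducible genes covered 1154 to 6934 CPM among PEN2 libraries, 1300 to 2935 among R4d and 1602 to 2040 among CB. The constitutive sums covered 1784 to 2870, 2177 to 2794 and 2061 to 2755 CPM, and both sums overlapped across the groups.

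The PEN2 libraries belong to a pair of sample entries, of 8 and 6 libraries, which differed in level. Mean Hsp68 was 279 ± 207 CPM (SD, n = 8) in entry 1 and 105 ± 87.7 (SD, n = 6) in entry 2. Mean Hsp26 was 1086 ± 467 CPM and 563 ± 234, and mean Hsc70-4 was 439 ± 78.1 and 643 ± 179. Hsp68 and Hsp26 thus lay higher on average, and Hsc70-4 lower, in entry 1, while stv was at 263 ± 148 and 275 ± 175 CPM. With either entry alone, Hsp68, Hsp23, Hsp26, Hsp27 and stv stayed higher and Hsp83 lower than in CB, and Hsc70-4 was called with entry 1 and not with entry 2.

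The plates of single neurons addressed whether PEN1 and PEN2 differ, with counts of the wells summed per plate. None of the 23 members tested was called by edgeR, against 0.256% of 6249 genes, 0.0800% higher in PEN1 and 0.176% lower. At an unadjusted p under 0.05 edgeR had 1, DnaJ-1, and DESeq2 had 0 called and 0 at an unadjusted p under 0.05. DnaJ-1 ranged over 214, 452 and 564 CPM (lowest, median and highest) in the 6 PEN1 plates. In the 5 PEN2 plates it stood at 554, 176, 197, 63.7 and 99.2 CPM, where plate 1 overlapped with PEN1 and the others lay below the PEN1 range. DnaJ-1 differed by 1.03 ± 0.40 log2 (edgeR adjusted p = 0.700), and it was called with PEN2 plate 1 left out.

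Plates varied widely within a type. PEN1 plate 2 and PEN2 plate 4, the plates with the highest glial sums, had the lowest inducible sums of their types, at 1637 and 1330 CPM. The part of glial RNA in the spread of plates was not tested. Hsp26 ranged over 260, 909 and 2410 CPM in PEN1 and stood at 1205, 629, 625, 487 and 674 in PEN2. Hsp23 ranged over 51.9, 751 and 1586 CPM in PEN1 and stood at 1694, 1074, 1384, 307 and 343 in PEN2. Hsp83 ranged over 279, 562 and 902 CPM in PEN1 and stood at 780, 280, 484, 168 and 557 in PEN2. PEN2 plate 1 was the highest PEN2 plate for all 3 genes. The constitutive Hsc70-4 ranged over 419, 481 and 758 CPM in PEN1 and stood at 807, 434, 610, 381 and 459 in PEN2. Droj2 ranged over 305, 377 and 634 CPM in PEN1 and stood at 448, 392.3, 403, 362 and 553 in PEN2. Hsp60A ranged over 127, 300 and 375 CPM in PEN1 and stood at 411, 359, 364, 297 and 462 in PEN2. These constitutive genes covered narrower ranges than Hsp26 and Hsp23. Hsp68 ranged from 36.0 to 578 CPM and Hsp70Bc from 14.6 to 234 over all 11 plates. The remaining tested members overlapped between the types as well, at adjusted p values of 0.974 or more.

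Single wells showed where the inducible counts came from. Of 1012 wells, 742 had at least 500 genes, 380 of PEN1 and 362 of PEN2, with a median of 53530 counts per well, and no well repeated another. No inducible gene was detected in 108 of these wells (14.6%), 1 or 2 in 314, and at least 3 in 320. At least 6 were detected in 109 wells, with 12 as the most in a well. Constitutive genes were absent from 73 wells, and 53 held at least 6.

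Inducible counts were concentrated in few wells. In 74 wells (10.0%) the inducible genes summed to at least 10000 CPM, and in 2 wells the constitutive genes did. The median well held 514 CPM of inducible and 1189 CPM of constitutive genes, while the highest well held 72175 CPM of inducible genes, 7.22% of its counts. The 75 wells highest in inducible genes held 72.0% of all inducible counts, and the 75 highest in constitutive genes held 40.6% of constitutive counts. By single gene, the top 75 wells held 99.2% of Hsp68, 97.8% of Hsp70Bc, 94.3% of Hsp23 and 85.4% of Hsp26 counts, against 66.1% of Hsp83 and 53.9% of Hsc70-4 counts. A gene found in fewer wells is more concentrated by this measure. On single plates the highest well held 21.4% to 83.1% of all Hsp68 counts and 9.9% to 30.5% of Hsc70-4 counts. The wells at 10000 CPM or more were spread over 10 of 11 plates, at 0.0% to 25.5% of the wells of a plate. The plate without such a well was PEN1 plate 2.

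**Figure D4:**
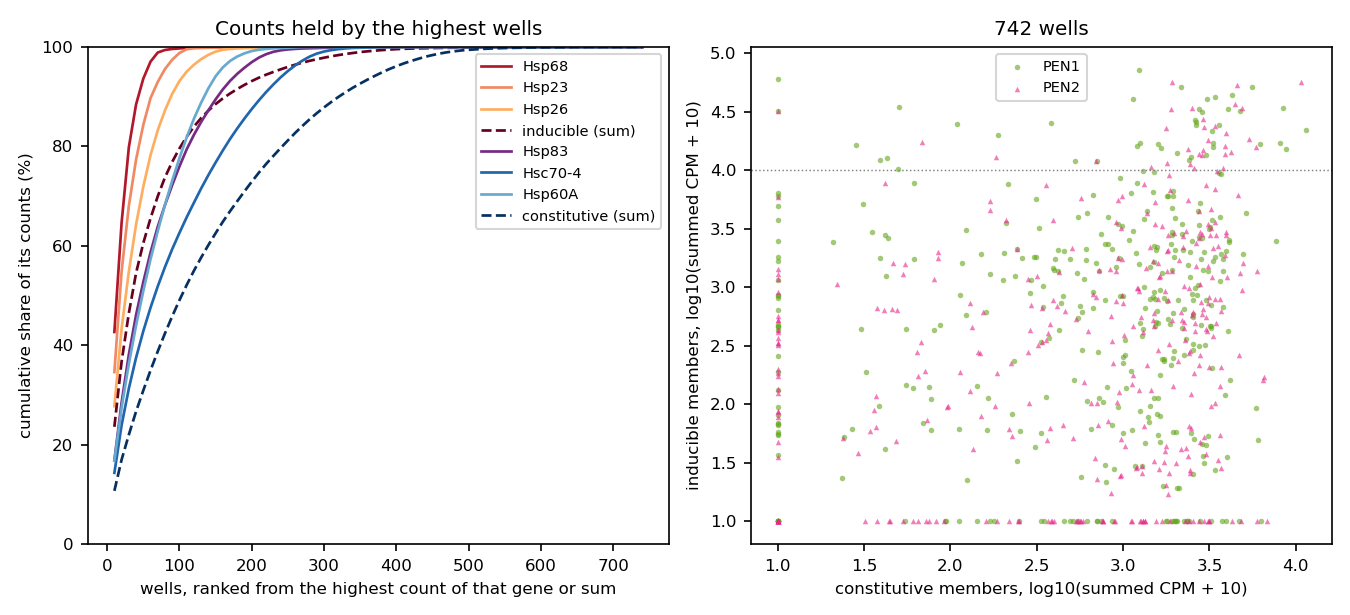
Left, cumulative percentage of counts against wells ranked from highest to lowest. Right, inducible against constitutive sums of each of 742 wells as log10(CPM + 10), with a dotted line at 10000 CPM of inducible genes, which 74 wells reach.

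Detection differed by gene. Hsc70-4 was detected in 51.9% of wells, Hsp83 in 46.1%, Droj2 in 38.4%, Hsp26 in 38.0%, Hsp60A in 36.5%, Hsc70-3 in 36.4% and DnaJ-1 in 35.6%. Hsp23 was detected in 27.2%, stv in 26.5%, Hsc70Cb in 24.9%, Hsp67Bc in 23.3%, Hsp68 in 17.4%, Hsp27 in 16.8% and Hsp70Bc in 14.6%. The 14 glial markers, which neurons should lack, were detected in 1.5% to 19.8% of wells, with a median of 4.0%. Hsp70Aa, Hsp70Ab, Hsp67Bb, Hsc70-1, Hsc70-2, Hsp60B and l(2)efl, at 0.1% to 3.2%, lay below that median and are read as background. Hsp22 and Hsp70Bbb were found in 0 of 742 wells, which allows up to 0.404% of wells. Genes between that median and 19.8%, Hsp68, Hsp27 and Hsp70Bc among them, cannot be told from background by detection alone. Their highest wells held 15931, 9771 and 5282 CPM, and those of the glial markers Gs2 and nrv2 held 18424 and 10243. Thinned to 5000 counts per well, with 37 of 742 wells left out, detection was 42.0% for Hsc70-4, 24.3% for Hsp26, 11.9% for Hsp68 and 8.51% for Hsp70Bc.

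Inducible genes occurred together in the thinned wells. Hsp26 was detected in 81.7% of 60 wells with Hsp70Bc and in 18.9% of 645 without it. With Hsp68, Hsp26 was detected in 70.2% of 84 wells, and without it in 18% of 621. For Hsp83 the shares were 81.7% with and 30.4% without Hsp70Bc, and for Hsc70-4 they were 65% and 39.8%. Constitutive genes differed among themselves. Hsc70-3 was detected in 46.7% of wells with and 24.2% without Hsp70Bc, and in 46.4% with and 23.3% without Hsp68. For Droj2 and Hsp60A these differences were smaller. Droj2 was detected in 30.0% of wells with and 28.2% without Hsp70Bc, and Hsp60A in 23.3% and 28.2%. With and without Hsp68 they were detected in 26.2% and 28.7% and in 27.4% and 27.9%. All wells of a plate share a run, and these shares are given without a test.

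**Figure D5:**
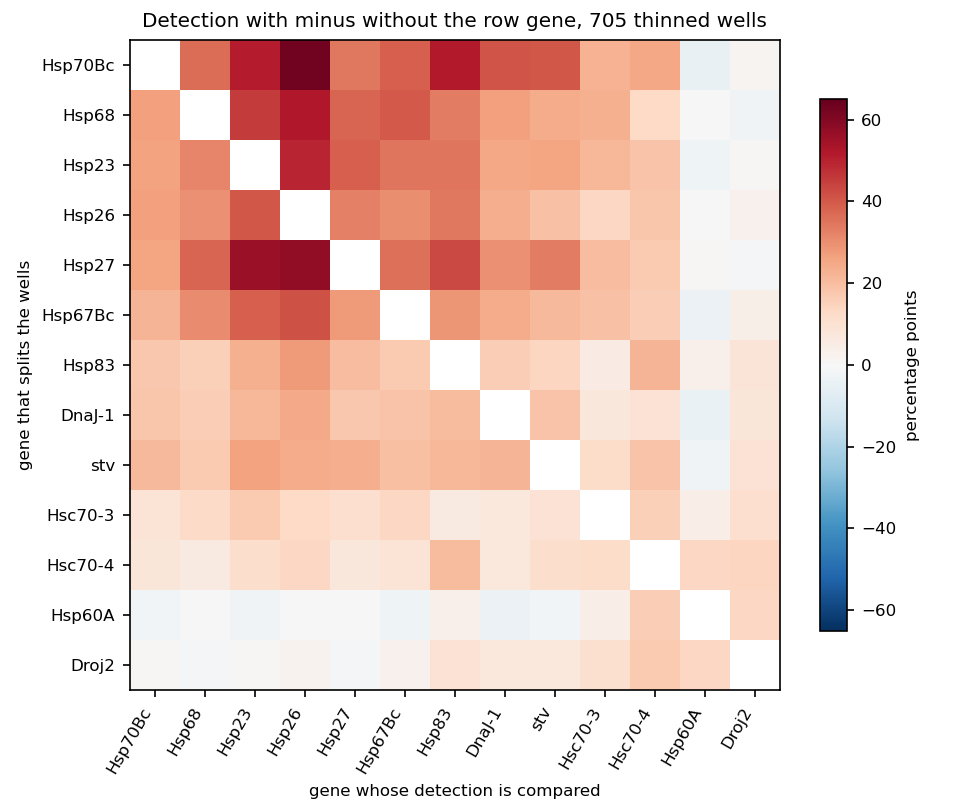
Difference in detection of each column gene between wells with and without the row gene, in percentage points, in 705 wells thinned to 5000 counts. Detection of inducible genes is higher beside each other (Hsp26 is found in 81.7% of wells with Hsp70Bc and 18.9% without), and that of Hsc70-3 is higher beside Hsp70Bc and Hsp68, while Droj2 and Hsp60A show smaller differences in those rows.

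Across plates, 89.0% ± 4.51 (SD, n = 6) of PEN1 wells and 82.0% ± 11.5 (SD, n = 5) of PEN2 wells held an inducible gene. The plate ranges, 82.9% to 96.5% and 63% to 94.4%, overlapped, with the lowest shares on PEN1 plate 1 and PEN2 plate 4. Thinned, the shares were 71.9% and 63.7%. Wells with at least 10 reporter counts, 241 of PEN1 and 106 of PEN2, held an inducible gene in 91.3% and 84.9% of cases, and the others in 84.2% and 80.9%. Wells with fewer than 10 reporter counts were shallower, at medians of 25042 against 59720 counts in PEN1 and 55655 against 68107 in PEN2. High wells were found on both sides. They made up 9.1% of PEN1 wells with at least 10 reporter counts and 15.1% of those with fewer, and 9.4% and 8.2% of PEN2 wells.

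Other genes of protein folding and stress were counted from 4 lists. Of all genes, limma called 1.76%, 1.53%, 1.02% and 1.48% higher in bulk D7, EPG, PEG and PEN2, and 8.55%, 7.96%, 5.12% and 6.24% lower. Of 28 co-chaperone, chaperonin and prefoldin genes, limma called CCT2, a chaperonin subunit, higher in D7 (36.1 ± 12.1 FPKM, SD, n = 4, against 10.0 and 11.8 in WB) and none in EPG, PEG or PEN2. In low-cell R4d, edgeR called 4 of 28 higher and 1 lower, where 10.8% of all genes were higher and 16.5% lower, led by CG11267 (2.48 ± 0.36 log2) and the DnaJ-family gene jdp. The jdp level was 15713 ± 1167 CPM (SD, n = 7) in R4d and 4705 ± 301 (SD, n = 8) in CB. Low-cell PEN2 had 0 of 28 higher and 2 lower, CCT7 and the synaptic vesicle co-chaperone Csp, where 7.11% of all genes were higher and 11.1% lower.

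Of 14 endoplasmic reticulum stress genes, Calr, encoding calreticulin, was called higher in D7 (1.78 ± 0.51 log2), and crc, the fly ATF4, lower in bulk PEN2, at 2.47 and 4.07 FPKM against 61.4 and 65.1 in WB. None was called in EPG or PEG, where 9.48% and 6.14% of all genes were. In low-cell libraries Xbp1, a factor of the unfolded protein response, was lower than in CB by −1.78 ± 0.31 log2 in PEN2 and −1.30 ± 0.38 in R4d, and GILT1 was higher in R4d (3.72 ± 0.99). The heat-inducible noncoding RNA lncRNA:Hsromega was called higher in bulk PEG (1.50 ± 0.39 log2) and PEN2 (1.89 ± 0.39), at 937 to 1271 FPKM against 750 and 769. Among 15 tested genes of proteotoxic and oxidative stress, 3 were higher and 3 lower in D7, 2 and 3 in EPG, 1 and 1 in PEG, and 1 and 2 in PEN2. Of all genes, 1.02% to 1.76% were higher and 5.12% to 8.55% lower in these bulk types. The polyubiquitin gene Ubi-p63E was higher in D7 (2.30 ± 0.56 log2) and EPG (2.58 ± 0.56). The metallothionein gene MtnA was lower in D7, at 0.215 ± 0.430 FPKM (SD, n = 4) against 120 and 146 in WB. In the low-cell libraries, 0 of 13 of these genes were higher and 7 lower in PEN2, with 2 higher and 4 lower in R4d. Of all genes, 7.11% were higher and 11.1% lower in PEN2, and 10.8% and 16.5% in R4d.

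The last list joined early response genes with genes of JNK signalling and cell death. Of 10 tested, 5 were higher in low-cell PEN2 than in R4d, as were 11.8% of all genes. The largest of these changes were those of the cell death gene rpr and of Hr38. None of 13 tested was called against WB in any bulk type, where 6.14% to 10.3% of all genes were. Against CB, 3 of 10 were higher in PEN2, where 7.11% of all genes were, and 3 of 10 lower in R4d, where 16.5% were. The largest of these changes were those of sr and Hr38 in PEN2 and of rpr and Hr38 in R4d. Hr38, an activity-induced nuclear receptor, stood at 946 ± 524 CPM (SD, n = 14) in PEN2, 67.04 ± 27.5 (SD, n = 7) in R4d and 238 ± 85.1 (SD, n = 8) in CB. On the plates, edgeR called none of the genes of these 4 lists between PEN1 and PEN2, where 0.256% of all genes were called.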

How the data were processed

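Bulk, low-cell and plate RNA-seq tables were analysed. The submitters' processing notes name STARsolo and edgeR, and the genome build and the use of strand are not given in the sources used here. The authors deposited bulk values that have the properties of FPKM, a unit inferred from the values since no header names it, and whole-number counts per gene for low-cell libraries and wells, with no normalization. The authors' deposited comparison tables give log2 changes of brain over sorted cells, turned here to sorted over brain, with p-values, FDR and group means. Columns were matched to samples by their labels, and where a table header and a sample's own label differed, the label was followed. The header of bulk D7 replicate 2 of line SS02238 names SS00238, the R4d line.

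The members and the other gene lists were chosen with earlier results of these data known. Members were matched by symbol, 1 of them by a RefSeq synonym. Every member is accounted for. Values by library are given for members called in at least 1 comparison of a protocol or among the 3 highest of their class there, and of each other list up to 2 called members per direction are named by the size of their change.

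FPKM of genes at 1 or more in at least 2 libraries were scaled by TMM, a pseudocount of 1 was added, and limma 3.58.1 was fitted to log2 values of all 14 bulk libraries. Counts were tested with edgeR 4.0.16 (quasi-likelihood, TMM, filterByExpr), in R 4.3.3, over all low-cell libraries and over plates. Counts of wells in which 500 or more genes were found were added up plate by plate, leaving out 4 control positions of each. All p-values were adjusted over all genes tested (Benjamini-Hochberg), with a threshold of 0.05. DESeq2 1.42.0, other scalings, filters and pseudocounts, and leaving out single libraries or plates were alternatives. The steps were tested on simulated data. For bulk values only large changes in moderately and highly expressed genes were simulated, a choice made after smaller changes, lower genes included, had rarely been recovered, so that the bulk test has little power for small changes and low genes. For plates, intervals and limits cover counting error only, and whether reads were collapsed to molecules is not given in the sources used here.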

Additional observations from a re-analysis of the deposited data

Results flagged for a closer look

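In 130 groups of 4 to 10 samples with a mean of at least 5, the highest or lowest sample was compared with the gap to its neighbour. Of these, 13 had a sample far from the others. Chance alone gives about 1 in 20 such groups. PEN2 plate 1 stood high for Hsp70Bc (97.9 CPM against 14.6 to 36.3 on the other PEN2 plates), Hsp26 (1205 CPM against 487 to 674) and DnaJ-1 (554 CPM against 63.7 to 197). Trap1 was high on PEN2 plate 2 (66.4 CPM against 13.6 to 21.5). Among PEN1 plates, Hsc70-4 was high on plate 5 (758 CPM against 419 to 539) and Droj2 on plate 2 (633.5 CPM against 305 to 421).

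In the bulk libraries, Hsp23 was high in EPG SS00096 replicate 1 (81.4 FPKM against 0.570 to 10.2) and Hsp83 in EPG SS00131 replicate 1 (81.3 FPKM against 23.3 to 31.1). In low-cell R4d, Hsp23 was high in replicate 4 (414 CPM against 114 to 186), Gp93 was high in replicate 2 (48.0 CPM against 15.9 to 27.0) and Hsp26 was low in replicate 1 (268 CPM against 562 to 670). CB replicate 4 stood low for Hsp67Bc (114.5 CPM against 212 to 294) and high for Hsc70Cb (161.5 CPM against 68.3 to 111).

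The tests of a difference between sorted types passed for 6 members. These were 5 of 21 tested in low-cell PEN2 against R4d, where 23.4% of all genes passed, and 1 of 30 in bulk, where 7.06% did. In low-cell PEN2 against R4d, edgeR gave Hsp23 2.26, Hsp67Bc 4.60, Hsc70-4 −0.43, Hsc70-5 −0.92 and Hsp60A −0.80 on the log2 scale. In bulk, Hsc70-3 spanned 2.73 log2 between D7 and PEN2.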

How the results depend on the processing

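Counts of called members against WB were lowest with a WB library left out. Over fits that left out single libraries they were 5 to 12 in D7, 2 to 11 in EPG, 4 to 12 in PEG and 3 to 11 in PEN2, and 0 to 4 in the F test between types. On plates they were 0 or 1. With no scaling of FPKM, 7, 6 and 7 members were called in D7, EPG and PEG and 0 in the F test. The F test also gave 0 with upper-quartile scaling, a pseudocount of 5 or no filter, and 2 with a pseudocount of 0.1. With only the groups compared in the fit, counts were 17 in PEG, 11 in low-cell R4d against CB and 3 in PEN2 against R4d. Over all genes, 1607 of 8235, 2493 of 4575 and 970 of 4887 were called in these fits. PEN2 against R4d also had 3 with no scaling beyond library size, where 1323 of 5553 genes were called. The share of wells with an inducible gene was 71.9% (PEN1) and 63.7% (PEN2) in wells thinned to 5000 counts, and 67.4% and 58.4% with at least 3 counts required. In no alternative did a called member change direction. The causes were not tested.

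Replicate numbers did not pair samples: correlations of deviations within a number were −0.038 to 0.035 in bulk and −0.011 to 0.052 on plates. With the number as a replicate block, 12, 9, 11 and 10 members were called in D7, EPG, PEG and PEN2, 1 in the F test (Hsp26) and 0 on plates. Low-cell numbers pair no libraries. The fits to a single PEN2 sample entry were chosen after seeing the data, and gave 8 and 6 members against CB and 7 and 4 against R4d. Bulk depth is unknown, and 2 libraries in WB, PEG and PEN2 limit every bulk test.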
